A study of Mus musculus with 3 samples.

Results

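Amphiregulin, epiregulin, heparin-binding EGF-like growth factor, hepatocyte growth factor, insulin-like growth factor 1, transforming growth factor β1, platelet-derived growth factor B and oncostatin M are secreted signals that act on damaged and surrounding tissue. Their 8 genes (Areg, Ereg, Hbegf, Hgf, Igf1, Tgfb1, Pdgfb and Osm) were followed by name through single-cell expression matrices of mouse liver wounds, out of 19091 genes in all. All 8 had a row in the control and 7-day matrices. At 1 day 6 had a row, and Areg and Ereg, which had none, were taken as 0.

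Livers of adult C57BL/6 mice were wounded by irreversible electroporation (IRE), a train of strong electric pulses that kills hepatocytes in a confined area. The labels give 8 pulses of 50 ms at 75 V, 1 s apart, whereas the study's methods give a lower voltage. Tissue from a 4 mm punch was digested with enzymes and its cells were captured by Drop-seq, a droplet method that tags each messenger RNA with a cell barcode and a unique molecular identifier (UMI), so that a UMI stands for 1 captured transcript. The 3 libraries were a control, IRE at 1 day post-injury (p.i.) and IRE at 7 days p.i., each made from 3 pooled livers. The labels name no transgene or drug. The control is labelled as sham surgery with tissue taken after 1 day, whereas the protocol describes an uninjured equivalent area, and no control was paired with the 7-day time point. Since each group was 1 library, no test between groups was possible. Cells of a library share its livers, its digestion and its sequencing and are not replicates, so the intervals below are exact 95% intervals for counting error only.

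These factors divide the work of repair. The EGF-family ligands are made as membrane proteins, are cut loose by proteases of the ADAM family and drive epithelial division through EGFR. HGF, made by non-parenchymal liver cells and activated by proteolysis, drives hepatocyte growth through MET, and IGF1, made mainly by hepatocytes under growth hormone, circulates with binding proteins. TGF-β1 restrains hepatocyte division and drives matrix production after release from a latent complex, PDGF-B recruits stellate cells and fibroblasts, and oncostatin M, an IL-6-family cytokine of myeloid cells, signals to hepatocytes, endothelium and fibroblasts through OSMR and gp130.

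Barcodes with at least 200 detected genes were used as cells. These numbered 10386 in the control, 9253 at 1 day and 5624 at 7 days, with 8013800, 6107866 and 3058967 UMIs, while the label states an estimated 1000 cells for the amplified material of each library. Median depth was between 456.5 and 595 UMIs per cell. Mitochondrial transcripts held 20.5% of UMIs in the control and 21.7% at 1 day but 4.10% at 7 days. Immediate-early and heat-shock genes known to respond to tissue dissociation held 0.162%, 0.115% and 0.537%. The 7-day and 1-day libraries shared 149 cell barcodes, the 1-day library and the control 68, and the 7-day library and the control 44. Without them Osm was 24.4-fold the control at 7 days and Igf1 0.131-fold, and the same number of repair factors was past 2-fold in each comparison. The punch was labelled as liver, but hepatocyte markers held only 0.235%, 3.43% and 0.106% of UMIs, and hepatocyte-like cells numbered 21, 281 and 0. Neutrophil-like cells made up 6.60%, 1.48% and 62.5% of cells in the same order. The 7-day library thus stood apart in its makeup, mitochondrial share and dissociation genes, and the part these played in any difference below was not tested. In these whole-punch sums, fewer cells of a type and less RNA per cell cannot be told apart.

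Of the 8 genes, Osm had the largest ratio of 7 days to control and Igf1 the smallest. Levels are given as CPM, the UMIs of a gene per 1000000 UMIs of all genes in the same cells. They are not corrected for transcript length and are compared for the same gene between libraries or classes.

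**Figure D1:**
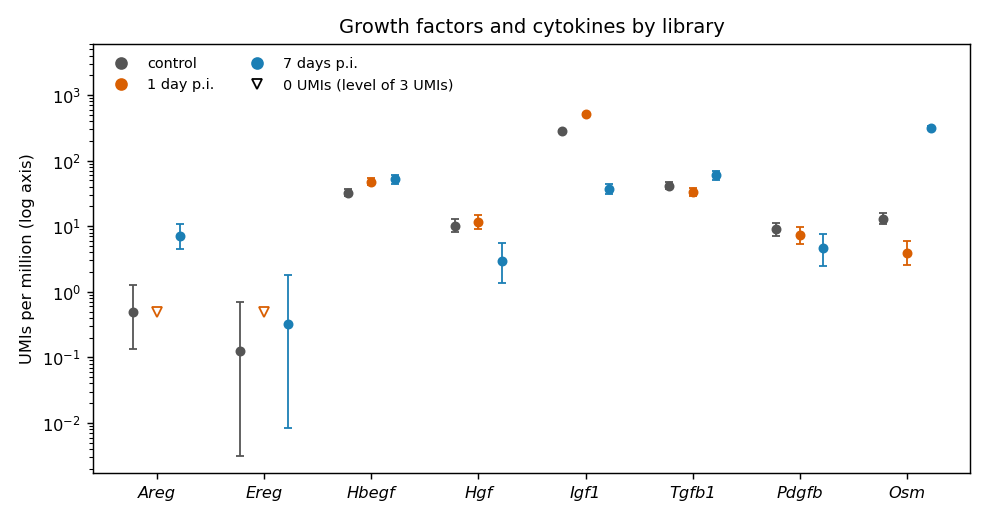
CPM (log axis) of each of the 8 genes in the control, 1-day and 7-day libraries, with exact Poisson 95% intervals for counting error as bars and open triangles at the level of 3 UMIs where none was found. Osm stands at 13.1, 3.93 and 320 CPM, whereas Igf1 stands at 282, 508 and 36.9.

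Areg, which encodes amphiregulin, was represented by 4 UMIs in the control, 0 at 1 day and 22 at 7 days, or 0.499, 0 and 7.19 CPM. The interval of the 0 at 1 day reached 0.604 CPM, and 3 UMIs, the value used in ratios, would be 0.491 CPM. Areg was therefore rare throughout and detected in 16 cells at 7 days, at a level 14.4-fold that of the control (interval 4.89 to 57.5) and at least 14.6-fold that at 1 day. With at most 20% mitochondrial UMIs these values were 36.5 and at least 7.40. Ereg, which encodes epiregulin, had 1 UMI in the control, 0 at 1 day and 1 at 7 days. No difference in Ereg was detectable at this depth. By the RefSeq gene order (GRCm38.p6), Areg lies between Ereg and Btc, the gene for betacellulin, another EGFR ligand. Btc had 10, 13 and 0 UMIs, so of these 3 adjacent ligand genes Areg was the one with more than 1 UMI at 7 days.

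Hbegf, which encodes heparin-binding EGF-like growth factor, had 260, 291 and 160 UMIs, the most among the EGF-family ligands of the set. Its level was 32.4 CPM (28.6 to 36.6) in the control, 47.6 (42.3 to 53.4) at 1 day and 52.3 (44.5 to 61.1) at 7 days. Both wound libraries lay above the control, by 1.47-fold at 1 day (1.24 to 1.74) and 1.61-fold at 7 days (1.32 to 1.97), and the counting intervals of the wound libraries overlapped each other. The ratio of 7 days to 1 day was 1.10 (0.900 to 1.34), and it changed side when mitochondrial UMIs were left out of the totals, to 0.896.

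Hgf, the MET ligand, had 82, 72 and 9 UMIs, or 10.2 (8.14 to 12.7), 11.8 (9.22 to 14.8) and 2.94 CPM (1.35 to 5.59). The control and 1-day levels were not distinguishable within counting error (ratio 1.15, 0.828 to 1.60). The 7-day level was 0.288-fold the control (0.127 to 0.573) and 4.01-fold lower than the 1-day level (ratio 0.250, 0.110 to 0.501). In cells with at least 500 genes the 7-day ratios were 0.496 to the control and 0.423 to 1 day.

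Igf1, which encodes the growth hormone-dependent factor IGF1, had 2257, 3105 and 113 UMIs. Its level was 282 CPM (270.1 to 294) in the control, 508 (491 to 527) at 1 day and 36.9 (30.4 to 44.4) at 7 days. It was 1.81-fold higher at 1 day than in the control (1.71 to 1.91). At 7 days it was 7.62-fold lower than in the control and 13.8-fold lower than at 1 day. Without hepatocyte-like cells the 1-day ratio was 1.54.

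Tgfb1, which encodes the latent cytokine TGF-β1, kept within a narrow range, with 334, 204 and 182 UMIs. It stood at 41.7 CPM (37.3 to 46.4), 33.4 (29.0 to 38.3) and 59.5 (51.2 to 68.8). The 1-day level was 0.801-fold the control (0.670 to 0.957) and the 7-day level 1.43-fold (1.19 to 1.72), so neither passed 2-fold, although each interval excluded 1. Pdgfb, the gene for the PDGF B chain, had 72, 45 and 14 UMIs, or 8.98 (7.03 to 11.3), 7.37 (5.37 to 9.86) and 4.58 CPM (2.502 to 7.68). Its 1-day level was 0.820-fold the control (0.552 to 1.21) and its 7-day level 0.509-fold (0.265 to 0.911), just inside the 2-fold limit. Without mitochondrial UMIs it was 0.423-fold, past that limit.

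Osm, the gene for oncostatin M, had 105, 24 and 978 UMIs. Its level was 13.1 CPM (10.7 to 15.9) in the control, 3.93 (2.52 to 5.85) at 1 day and 320 (300 to 340) at 7 days. The 3 intervals did not overlap. At 1 day it was 0.300-fold the control (0.184 to 0.471). At 7 days it was 24.4-fold the control (19.9 to 30.1) and 81.4-fold the 1-day level (54.4 to 128). In cells with at least 500 genes these ratios were 0.159 at 1 day against control and 174 at 7 days against 1 day. A UMI of Osm was found in 0.924% of control cells, 0.259% of 1-day cells and 13.3% of 7-day cells. Dissociation-response genes, the neutrophil-like share and the mitochondrial share moved in the same comparison, and their part was not tested. By gene order, Osm lies next to Lif, the gene for leukaemia inhibitory factor, a cytokine of the same family.

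These differences were read against all genes with the same rule. A gene was counted as past 2-fold when it had at least 20 UMIs in both libraries together and its ratio was at least 2 or at most 0.5. At 1 day against control, 0 of the 6 repair factors that reached 20 UMIs were past 2-fold higher, where 13.6% of 12988 genes were, and 1, Osm, was past 2-fold lower, where 7.14% were. At 7 days against control, 2 of 7 (Areg and Osm) were higher, where 8.79% of 12074 genes were, and 2 (Hgf and Igf1) were lower, where 26.3% were. At 7 days against 1 day the same 4 genes were past 2-fold, 2 higher where 11.3% of 12116 genes were, and 2 lower where 31.8% were. With so few genes, the counts are a description. The comparisons share libraries, and Areg reached 20 UMIs only through the 7-day library in which it was high.

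Single genes had distinct places in the whole distribution. By ratio of 7 days to control, Osm ranked 40 of 12074 from the highest and Areg ranked 86, whereas Igf1 ranked 624 from the lowest and Hgf ranked 1692. At 1 day against control Osm ranked 397 from the lowest of 12988 and Igf1 ranked 2086 from the highest. The median log2 ratio over all genes was 0.05 at 1 day against control, −0.29 at 7 days against control and −0.32 at 7 days against 1 day. The median over the repair factors tested was −0.04, 0.51 and 0.13. The split of calls at 7 days depended on the scaling: against 1 day 26.2% of all genes past 2-fold were higher in CPM, 39.1% under median-of-ratios scaling and 18.1% without mitochondrial UMIs. Against control the corresponding shares were 25.0%, 38.9% and 15.7%. Under median-of-ratios scaling Tgfb1 was 2.23-fold higher at 7 days than at 1 day, past the limit.

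**Figure D2:**
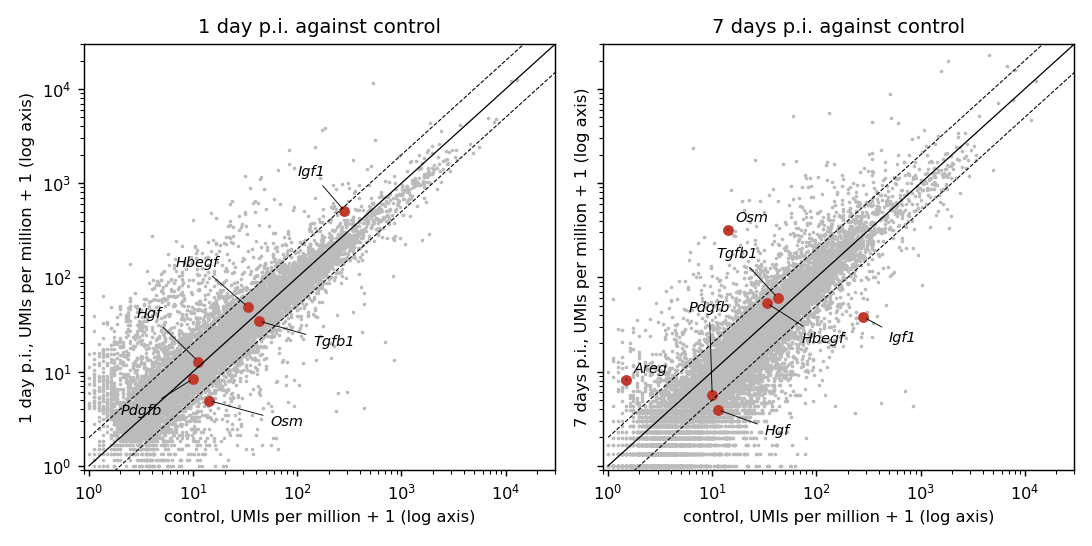
CPM + 1 at 1 day (left) and at 7 days (right) against CPM + 1 in the control (log axes) for all genes (grey points), with the repair factors of at least 20 UMIs labelled, a line of equality and dashed lines at 2-fold. At 7 days Osm and Areg lie above the upper dashed line and Igf1 and Hgf below the lower one, while at 1 day Osm is the labelled gene outside them.

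Cells were assigned to classes by marker genes that include none of the 8 factors. A cell took the class with the most distinct markers detected, at least 2, and hepatocyte-like cells were those with at least 10% of UMIs in hepatocyte markers. Levels by class are given where a class held at least 50 cells in a library. Neutrophil-like (S100a8, S100a9, Ly6g, Retnlg), monocyte-like (Ly6c2, Ccr2, Chil3, listed as Chi3l3), wound-macrophage-like (Arg1, Ccl2, Spp1, Gpnmb) and Kupffer-like cells (Clec4f, Vsig4, Timd4) each held at least 3 of their own markers among the 10 genes of highest fold, and no class there held more markers of another class. The cells were picked by these same markers, so this describes the gate and does not test what the cells are. Neutrophil markers nevertheless occurred in every class at 7 days: 79.6% of wound-macrophage-like, 75.9% of monocyte-like and 82.8% of Kupffer-like cells had at least 2 of them, against 19.1%, 11.5% and 18.0% in the control. Conversely, 32.2% of the 7-day neutrophil-like cells had at least 2 wound-macrophage markers. Class levels at 7 days therefore hold transcripts of more than a single cell type, and whether these came from free RNA, from doublets or from the cells themselves was not tested. Endothelial-like, fibroblast-like, T-like, B-like and NK-like cells each numbered under 50 at 7 days.

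The class holding the most UMIs of a gene differed between libraries, whose makeup differed. Summed over the 3 libraries, 70.9% of Osm UMIs lay in neutrophil-like cells, which held 76.0% of them at 7 days but 37.1% in the control and 3 of 24 at 1 day. Of all UMIs the class held 61.2% at 7 days, 6.70% in the control and 1.25% at 1 day. Kupffer-like cells held 42.1% of Igf1 UMIs and led in each library. They held 30.7% of Hbegf UMIs but led only in the control, while endothelial-like cells led at 1 day (111 UMIs against 94) and neutrophil-like cells at 7 days (96 against 6). Endothelial-like cells held 44.8% of Hgf UMIs and led in the control and at 1 day. Tgfb1 was the most widely spread of the abundant genes, with 23.9% of its UMIs in Kupffer-like, 18.1% in endothelial-like and 16.3% in neutrophil-like cells. The leading class of Pdgfb was endothelial-like with 28.2%, close to Kupffer-like with 25.2%.

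**Figure D3:**
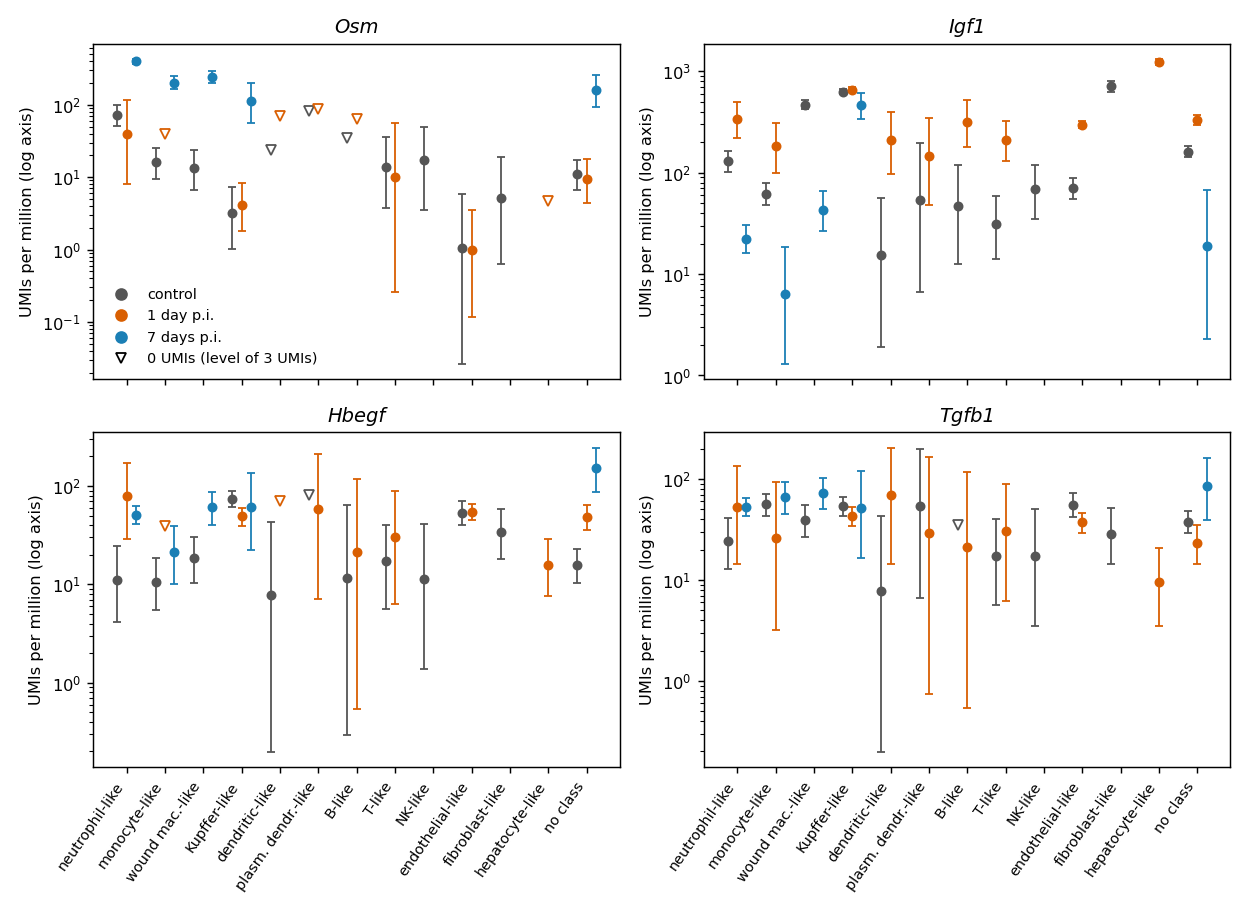
CPM (log axes) of Osm, Igf1, Hbegf and Tgfb1 in each marker class of at least 50 cells in the control, 1-day and 7-day libraries, with exact Poisson 95% intervals as bars and open triangles at the level of 3 UMIs where none was found. Osm at 7 days lies above its control level in each class shown for both libraries, and Igf1 is high in Kupffer-like cells of all 3 libraries and in the 1-day hepatocyte-like cells.

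In neutrophil-like cells, Osm stood at 72.6 CPM (39 UMIs, 51.6 to 99.3) in the control, 39.3 (3 UMIs, 8.10 to 115) at 1 day and 397 (743 UMIs, 369 to 426) at 7 days. The 7-day level was 5.46-fold the control level of the same class (3.96 to 7.74). Cells with an Osm UMI made up 4.67% of the class in the control (3.22 to 6.53) and 15.8% at 7 days (14.6 to 17.0), at median depths of 641 and 449 UMIs. Thinned to 300 UMIs per cell, which left out 7 and 292 cells, the shares were 2.36% and 10.7%. Endothelial-like cells, which should lack Osm, had a UMI in 0.0700% of control cells at a median depth of 541 UMIs (0.0713% after thinning, 27 cells left out). No such class reached 50 cells at 7 days, so no background share can be set beside the 7-day value.

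Osm was also higher at 7 days in every other class that could be compared. Monocyte-like cells had 16.0 CPM in the control and 201 at 7 days (12.6-fold, 7.55 to 22.1). Wound-macrophage-like cells had 13.5 and 242 (18.0-fold, 9.66 to 37.0). Kupffer-like cells had 3.16 and 113 (35.8-fold, 11.5 to 131), the latter from 11 UMIs. Neutrophil-like cells thus had the highest level and the lowest ratio among these 4 classes. Osm was also set against the neutrophil markers found in the same cells. Per 1000 neutrophil-marker UMIs at 7 days there were 6.31 Osm UMIs in neutrophil-like cells and 16.3 in monocyte-like cells (2.58-fold, 2.06 to 3.20). There were 22.6 in wound-macrophage-like cells (3.58-fold, 2.91 to 4.38) and 10.3 in Kupffer-like cells (1.62-fold, 0.807 to 2.92). The neutrophil-like class was drawn by the markers that its count is divided by, which lowers its own value. In the control the ratio to neutrophil-like cells was 5.09 in monocyte-like, 9.499 in wound-macrophage-like and 1.499 in Kupffer-like cells. It was 9.28 in T-like cells, from 4 Osm UMIs, and 0.464 in endothelial-like cells, from 1 UMI. These ratios therefore cannot decide a source, and where the Osm of the other classes came from was not tested.

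Because S100a8 and S100a9 were found in every class at 7 days, a gate without both was added after the data had been seen. It left 243 neutrophil-like cells in the control and 1555 at 7 days, with Osm at 189 and 557 CPM, a ratio of 2.94 in place of 5.46. A gate of at least 3 markers gave 3.64. Under the gate without S100a8 and S100a9, 63 endothelial-like cells at 7 days had 4 Osm UMIs, or 107 CPM (29.2 to 274). The main gate gave 34 such cells, so leaving out both markers itself drew cells into this class. Kupffer-like cells stood at 103 CPM (56.2 to 173) by the same gate, monocyte-like cells at 241 and wound-macrophage-like cells at 287 (251 to 326). The interval of the endothelial-like level reached 274 and so overlapped those of the monocyte-like (209.9 to 276) and wound-macrophage-like levels. The neutrophil-like interval (506 to 613) lay above it. All these levels were shaped by the same gate, so they cannot decide a source. With a gate that allowed no marker of any other class, 281 neutrophil-like cells at 7 days had Osm at 423 CPM (310 to 562) and 60 in the control had 57.5 from 2 UMIs (6.97 to 208).

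Without classes, cells were also grouped by the share of their UMIs in neutrophil markers, again after the data had been seen. In the 7-day library Osm was higher in each group of higher share, at 176 CPM in cells under 1% and at 211, 395, 437 and 644 in the groups from 1%, 2%, 4% and 8% upwards. In the control it was 8.71 CPM under 1%, 0 of 46704 UMIs in the group from 1%, then 47.9, 81.7 and 251. The ratio of 7 days to control was 20.2 in cells under 1% (15.2 to 27.2) and 2.57 in those at 8% or more (1.73 to 3.96), and these intervals did not overlap. Cells under 1% at 7 days held 1.60% of UMIs in wound-macrophage markers, against 0.179% in the control.

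**Figure D4:**
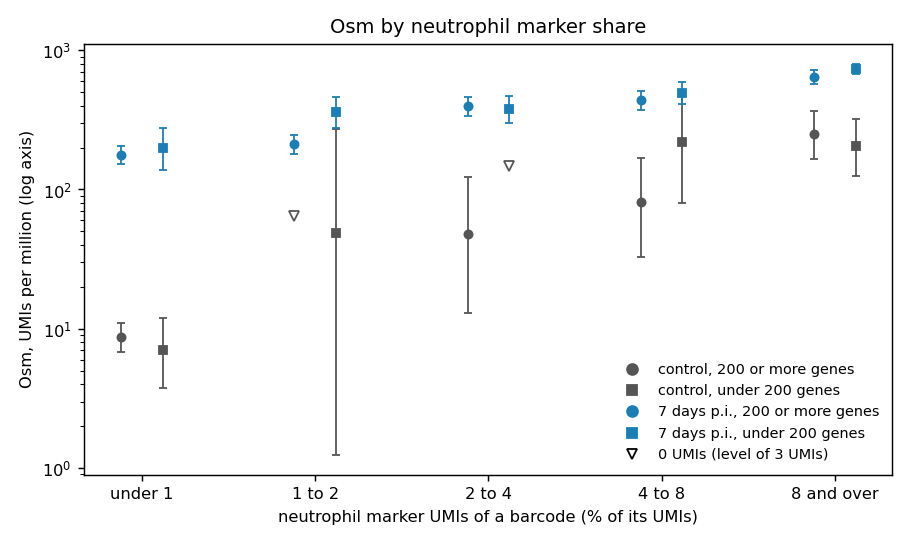
Osm CPM (vertical, log axis) in barcodes grouped by the percentage of their UMIs in neutrophil markers (horizontal), for control and 7-day cells and for barcodes under 200 genes, with exact Poisson 95% intervals and open triangles at the level of 3 UMIs where none was found. At 7 days Osm is higher in each group of higher neutrophil-marker share. In the control it is highest in the groups from 4% upwards but does not rise from each group to the next. The 7-day cells lie above the control cells in each group.

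Igf1 in Kupffer-like cells stood at 631 CPM (592 to 671) in the control, 658 (622 to 695) at 1 day and 462 (337 to 619) at 7 days. The 1-day ratio to control was 1.04 (0.959 to 1.13), and the 7-day ratio was 0.733 (0.531 to 0.988) with an upper bound close to 1. Kupffer-like cells were 15.6% of control cells, 30.6% at 1 day and 2.28% at 7 days, and the part of these shares in the level of the whole punch was not tested. A UMI of Igf1 was found in 38.6% and 30.1% of Kupffer-like cells in the control and at 1 day and in 32 of 128 at 7 days, at median depths of 788, 556 and 548 UMIs, and after thinning, which left out 31, 71 and 13 cells, in 17.2%, 16.8% and 12.2%.

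Hepatocyte-like cells, the main liver source of circulating IGF1, had the highest Igf1 level at 1 day, 1231 CPM (1146 to 1320) from 281 cells, which carried 25.2% of that library's Igf1 UMIs. The 21 hepatocyte-like cells of the control had 70 UMIs, or 1066 CPM. Fibroblast-like cells, present in sufficient number only in the control, had 714 (632 to 804). Wound-macrophage-like cells had 468 (422 to 517) in the control and 43.2 (26.4 to 66.7) at 7 days, a ratio of 0.0924 (0.0558 to 0.145). Mmp12, Gpnmb, Spp1 and Trem2 were among the leading genes of this class in both libraries, and Ccl7, Ccl2 and Arg1 only at 7 days. From the control to 7 days Gpnmb stood at 3283 and 393 CPM, Spp1 at 3782 and 12268, and Arg1 at 728 and 15678. The cells under that gate thus differed in marker levels between the libraries, which also bears on the Osm, Hbegf and Tgfb1 ratios of this class.

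At 1 day Igf1 was found at moderate levels in classes not known to make it. T-like cells had 31.1 CPM in the control and 212 at 1 day, B-like cells 46.5 and 319, and endothelial-like cells 70.5 and 298. The share of cells with a UMI at 1 day was 10.8% in T-like, 15.1% in B-like and 15.0% in endothelial-like cells, at median depths of 498.5, 463.5 and 516 UMIs. Thinned, they were 7.45%, 12.05% and 7.53%, with 5, 3 and 108 cells left out. The endothelial-like share was no higher than that of B-like cells and is not read as expression by endothelial-like cells. Barcodes under 200 genes carried Igf1 at 369 CPM at 1 day and 109 in the control. Hepatocyte markers were also highest at 1 day. Per 1000 hepatocyte-marker UMIs there were 17.5 Igf1 UMIs in endothelial-like cells and 15.8 in barcodes under 200 genes, against 6.56 in hepatocyte-like cells (2.66-fold, 2.39 to 2.96, and 2.41-fold, 2.18 to 2.65). Per Kupffer-marker UMI the endothelial-like value was 2.90-fold that of Kupffer-like cells (2.63 to 3.20). The hepatocyte-like and Kupffer-like classes were drawn by the same markers that their counts are divided by, which lowers their own values. These ratios therefore cannot decide a source, and where this Igf1 came from was not tested.

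Hbegf in the control was highest in Kupffer-like cells at 74.6 CPM (61.7 to 89.3), followed by endothelial-like cells at 53.7 (39.9 to 70.5), and these intervals overlapped. At 1 day both stood near 50, with 49.0 (39.6 to 60.0) and 54.3 (44.7 to 65.4). The Kupffer-like level was lower at 1 day than in the control (0.658-fold, 0.496 to 0.870), although the whole punch was higher. A UMI was found in 6.49% of control Kupffer-like cells (2.33% after thinning, 31 cells left out) against 0.763% of B-like cells (0% after thinning, 1 left out), at median depths of 788 and 545 UMIs.

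At 7 days Hbegf stood at 51.2 CPM in neutrophil-like cells, 60.5 in wound-macrophage-like cells and 61.7 in Kupffer-like cells, 3 levels with overlapping intervals. In neutrophil-like cells the control level was 11.2 from 6 UMIs, so the ratio was 4.59 (2.03 to 12.8). The 1-day level of that class was 78.6, also from 6 UMIs, 7.03-fold the control (1.88 to 26.3), and the ratio of 7 days to 1 day was 0.652 (0.289 to 1.82), so the wound libraries were not distinguishable. Of the 1-day neutrophil-like cells 26.3% had at least 2 Kupffer markers, against 8.32% in the control. Whether their Hbegf came from other cells was not tested. In wound-macrophage-like cells the ratio of 7 days to control was 3.29 (1.70 to 6.63). The neutrophil-like ratio of 7 days to control lay between 2.81 and 7.72 under the alternatives run. Kupffer-like and endothelial-like cells held 45.4% and 19.6% of the Hbegf UMIs of the control, and neutrophil-like cells held 96 of 160 at 7 days, beside 61.2% of all UMIs. The 259 cells without a class had 151 CPM (86.6 to 246), from 16 UMIs. The cells of the 7-day library with Hbegf had Osm in 15.7% of cases (19 of 121), where 13.3% of all its cells had Osm.

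Areg UMIs at 7 days lay in wound-macrophage-like (9), monocyte-like (7) and neutrophil-like cells (6), or 19.4, 14.8 and 3.20 CPM. All 4 UMIs of the control lay in monocyte-like cells at 3.56 CPM, giving a ratio within that class of 4.17 (1.06 to 19.4). Neutrophil-like cells, 62.5% of the library, held 27.3% of its Areg UMIs and 76.0% of its Osm UMIs. Both genes were past 2-fold higher at 7 days, and the Areg shares rest on 22 UMIs.

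Hgf in endothelial-like cells stood at 35.8 CPM (24.8 to 50.0) in the control and 18.6 (13.2 to 25.5) at 1 day, a ratio of 0.520 (0.318 to 0.851). Control wound-macrophage-like cells had 17.2 (9.38 to 28.8), from 14 UMIs, and 0 of 462748 UMIs at 7 days. Stellate cells, the textbook source of HGF, were hardly captured: 13 cells in the control were stellate-like, with 1 Hgf UMI. Of the 9 Hgf UMIs at 7 days, 4 lay in neutrophil-like cells, at 2.14 CPM. Pdgfb was similarly highest among large classes in control endothelial-like cells, at 17.9 CPM (10.4 to 28.6), with 9.78 (5.97 to 15.1) at 1 day and overlapping intervals. NK-like cells of the control had 28.5 (9.27 to 66.6) from 5 UMIs.

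Tgfb1 in the control stood at 56.0 CPM in monocyte-like, 55.8 in endothelial-like, 53.7 in Kupffer-like and 39.2 in wound-macrophage-like cells, all with overlapping intervals. Neutrophil-like cells were lower, at 24.2 (12.9 to 41.4), below the intervals of the first 3 classes. In endothelial-like cells it was lower at 1 day, at 37.2 (0.667-fold, 0.463 to 0.965). At 7 days it was higher in wound-macrophage-like cells, at 73.5 (1.87-fold, 1.12 to 3.14). In neutrophil-like cells it stood at 53.4 (2.21-fold, 1.23 to 4.29), but with at least 3 markers the ratio was 1.42 and without S100a8 and S100a9 in the gate it was 0.994, so that difference rests on how the class was drawn. Hepatocyte-like cells at 1 day had the lowest level among classes with at least 5 UMIs, 9.45 CPM (3.47 to 20.6).

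Few cells carried more than a single repair factor. A UMI of any of the 8 genes was found in 19.2% of control, 25.4% of 1-day and 19.6% of 7-day cells, and 3 or more of them in 9, 4 and 6 cells. The factor found in the most cells was Igf1 in the control and at 1 day (13.5% and 20.9%) and Osm at 7 days. At these depths the absence of a UMI does not show that a cell lacked the transcript.

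The receptors and modifiers of these ligands were examined through lists holding 77 genes found in the matrices. The lists were chosen with earlier results of these data known, so their counts beside the shares over all genes are a description. At 7 days against control 15 of the 66 with at least 20 UMIs were past 2-fold higher and 34 lower, where 8.79% and 26.3% of all genes were, with a median log2 ratio of −1.25 against −0.29 for all genes. At 1 day against control 17 were higher and 17 lower of 68, where 13.6% and 7.14% of all genes were, and at 7 days against 1 day 19 and 29 of 61, where 11.3% and 31.8% were. The shares over all genes at 7 days against control, 8.79% higher and 26.3% lower, are the background for each list that follows. Endothelial-like cells were 13.8% of control cells, 36.5% at 1 day and 0.605% at 7 days, and fibroblast-like cells 3.27%, 0.0757% and 0. Their part in these counts was not tested.

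**Figure D5:**
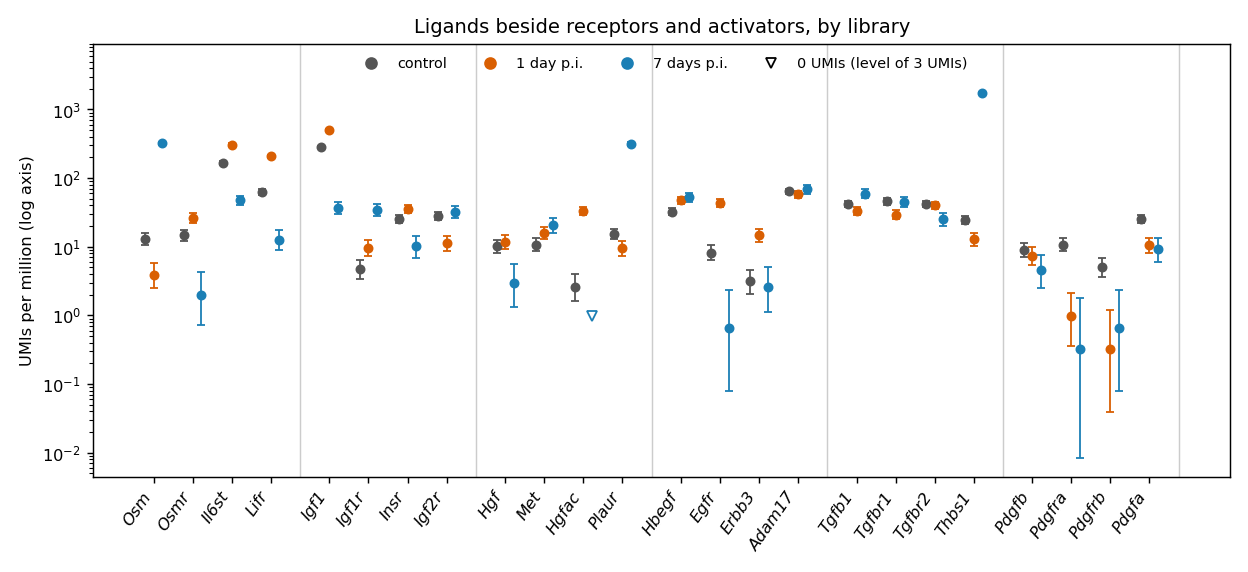
CPM (log axis) in the control, 1-day and 7-day libraries for 6 repair factors, each followed by 3 receptors or modifiers of its pathway, with exact Poisson 95% intervals as bars and an open triangle at the level of 3 UMIs where none was found. At 7 days Osm is high while its receptor subunits Osmr and Il6st are low, and Igf1 is low while Igf1r is at its highest.

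In the IL-6 family, Osm was highest in the library in which the genes of its receptor subunits were lowest. Osmr, the oncostatin M receptor subunit, stood at 14.8, 26.4 and 1.96 CPM, and Il6st, which encodes gp130, at 166, 307 and 47.4. Lifr, the leukaemia inhibitory factor receptor, stood at 63.0, 207 and 12.7. Endothelial-like cells held 56.3% of the Osmr UMIs of the control at 70.5 CPM and 60.2% of those at 1 day at 47.4. Il6ra, the IL-6 receptor gene, differed from these, with 127, 87.3 and 181 CPM. Il6 itself had 7, 7 and 25 UMIs, and was 9.36-fold the control at 7 days (3.93 to 25.6). Of the 7 genes of this list with 20 UMIs, 2 (Il6 and Clcf1) were past 2-fold higher at 7 days against control and 4 (Osmr, Lifr, Il6st and Il11ra1) lower.

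Egfr and Erbb3, EGF-family receptors, were highest at 1 day, when hepatocyte-like cells were most numerous. Egfr stood at 8.24, 43.4 and 0.654 CPM, and 36.6% of its 1-day UMIs lay in hepatocyte-like cells at 153 CPM. Erbb3 stood at 3.12, 14.7 and 2.62, and Erbb2 had 17, 11 and 2 UMIs. Among genes that release these ligands, Adam17, the main sheddase of amphiregulin and HB-EGF, differed little, at 63.9, 57.8 and 68.7, and Adam10 stood at 112, 130 and 184. Rhbdf2, which encodes a partner that brings ADAM17 to the cell surface, was 2.98-fold the control at 7 days (2.26 to 3.94), and Timp3, an inhibitor of ADAM17, was lower, at 180.1, 266 and 25.2. Of the other ligands of the family, Nrg1 and Nrg4 were past 2-fold higher at 7 days against control (7.14-fold and 3.22-fold), from 30 and 16 UMIs.

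For HGF, the receptor gene Met stood at 10.7, 15.9 and 20.6 CPM, and at 7 days its highest level was in monocyte-like cells, at 36.0 (21.0 to 57.7). Hgfac, which encodes the HGF-activating protease of hepatocytes, had 21, 203 and 0 UMIs. Plaur, the urokinase receptor, stood at 15.3, 9.50 and 310, or 20.2-fold the control at 7 days (16.7 to 24.6). Of its 7-day UMIs 71.0% lay in neutrophil-like cells, beside 61.2% of all UMIs. Spint2, an inhibitor of HGF activation, stood at 16.8, 35.4 and 7.52. Of the 9 genes of this list, 2 (Plaur and Spint1) were past 2-fold higher and 5 lower at 7 days against control.

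The receptor gene Igf1r was highest at 7 days, when Igf1 was lowest. Igf1r stood at 4.74, 9.66 and 34.3 CPM, 7.24-fold the control at 7 days (4.95 to 10.8). At 7 days 80.0% of its UMIs lay in neutrophil-like cells at 44.8 CPM, beside 61.2% of all UMIs. The binding proteins Igfbp7, Igfbp4 and Igfbp2 were each highest at 1 day, with 1512, 453 and 112 CPM, and lowest at 7 days, with 101.3, 17.7 and 1.31. Of the 11 genes of this list with 20 UMIs, 1 was past 2-fold higher and 8 lower at 7 days against control (all genes 8.79% and 26.3%).

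Among partners of TGF-β1, Thbs1, which encodes thrombospondin 1, an activator of the latent complex, had the largest ratio of all listed genes with a value in both libraries: 24.5, 12.8 and 1745 CPM, or 71.3-fold the control at 7 days (61.9 to 82.7). It was high in wound-macrophage-like cells, at 2440 CPM, and in neutrophil-like cells, at 1809. Nrros, which tethers latent TGF-β1 on macrophages, stood at 88.2, 58.0 and 126, and Eng, the endothelial co-receptor endoglin, at 69.8, 218 and 16.3. Of the 16 genes of this list with 20 UMIs, 2 (Thbs1 and Furin) were past 2-fold higher at 7 days and 8 lower (all genes 8.79% and 26.3%). All 5 genes of the PDGF list were lower at 7 days than in the control, among them Pdgfa (25.6, 10.6 and 9.15), Pdgfc (13.6, 15.1 and 1.96) and Pdgfra (10.7, 0.982 and 0.327), and 59.3% of the control Pdgfra UMIs lay in fibroblast-like cells.

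Genes known to respond to these signals were also read, although each responds to other signals too. Of 9, 5 were past 2-fold higher at 7 days against control and 1, Ctgf, was lower (all genes 8.79% and 26.3%). Socs3, a feedback inhibitor induced by gp130 cytokines, stood at 28.0, 12.1 and 113 CPM (4.03-fold, 3.40 to 4.80). Dusp6, a feedback phosphatase of ERK, stood at 66.6, 73.3 and 200.1, and Skil, a TGF-β feedback gene, at 69.9, 70.6 and 179. At 7 days 67.0% of the Socs3 UMIs lay in neutrophil-like cells, which held 61.2% of all UMIs. The dissociation-response list differed in the same comparison, with 11 of 15 genes past 2-fold higher and 1 lower, among them Fos (253, 109 and 630), Jun (298, 281 and 768) and Ier3 (85.6, 76.5 and 1136), and its part in the response genes was not tested.

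To place the factors beside other genes, the correlation of log2(CPM + 10) over 24 class-by-library units was taken for 10871 genes. Osm was most like Trem1, a neutrophil and monocyte receptor (r = 0.965), Slc16a3, a lactate transporter (r = 0.955), and Arg2, the mitochondrial arginase (r = 0.932). The other factors had less similar neighbours: Cpd for Hbegf (r = 0.842), Hist1h2bc for Igf1 (r = 0.818), H2-T24 for Tgfb1 (r = 0.816), Mcam, an endothelial adhesion molecule, for Hgf (r = 0.802), and Abl2 for Pdgfb (r = 0.787). Each neighbour was picked as the highest of many correlations over only 24 units, which by itself raises r, and no r without a relation was computed. Hgf and Pdgfb rest on 163 and 131 UMIs in all. The units share libraries and differ in depth, and of 18 neighbours named this way, 3 for each of 6 genes, 10 were named again with a pseudocount of 50. Areg and Ereg had too few UMIs for this comparison.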

How the data were processed

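The authors deposited UMI counts per gene and barcode for 3 Drop-seq libraries. Per the file headers, UMIs within 1 edit of each other were merged and only sense reads in coding or UTR parts were counted. The submitters' processing notes name STAR 2.5.2a and hg19, a human build, so no coordinates or sequences are given. The 8 genes and all lists were chosen with earlier results of these data known.

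UMIs were summed over barcodes with at least 200 genes, by library and by marker class. Levels carry exact Poisson intervals, ratios conditional binomial intervals and shares exact Clopper-Pearson intervals, all at 95% and for counting error only. A count of 0 was set to 3 UMIs in ratios, and no ratio is given where both counts are at most 3. Genes named beside the 8 were the 3 of each list with the most UMIs and the 3 most correlated with each factor. Clcf1, Ctgf, Furin, Hgfac, Igf1r, Il6, Il11ra1, Osmr, Rhbdf2 and Spint1 were singled out after their values were seen. Chil3, Fcmr and Ccn2 were matched under older symbols (Chi3l3, Faim3, Ctgf), and Hhip and Epgn were not found. Doublets were not called, and an alternative left out the 5% deepest barcodes. Other alternatives changed the gate, the gene minimum, the mitochondrial limit, the scaling and the pseudocount. Python 3.11.15, numpy 2.4.6, scipy 1.17.1 and matplotlib 3.10.9 were used. The ratio, its interval and the 2-fold rule were tested on simulated data. With 1 library per group no test between groups was run.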

Additional observations from a re-analysis of the deposited data

Results flagged for a closer look

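Barcodes with under 200 genes were not used as cells, and some of the 8 genes had levels there above those of the control's barcodes of the same kind. Osm stood at 542 CPM at 7 days (506 to 581), against 19.3 in the control, and this was also above the 320 CPM of the 7-day cells. These 6842 barcodes held 33.2% of the library's UMIs, and 5.52 Osm UMIs per 1000 neutrophil-marker UMIs against 6.31 in neutrophil-like cells. Igf1 stood at 369 CPM at 1 day (345 to 394) against 109 in the control. Hbegf stood at 38.3 at 1 day (30.9 to 46.8) and 55.9 at 7 days (44.6 to 69.1) against 18.3, and Tgfb1 at 51.9 at 7 days (41.1 to 64.7) against 23.8. Of the 6842 barcodes at 7 days, 2923 had at least 8% of their UMIs in neutrophil markers, with Osm at 736 CPM (675 to 802). Of the 5624 cells 1009 had that share, so the 200-gene minimum left out many barcodes rich in neutrophil markers. What the barcodes under 200 genes were was not tested.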

How the results depend on the processing

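Of 263 alternative values for 34 results, 234 stayed within the counting interval or near the reported count, 28 moved further and 1 reversed. The number of repair factors past 2-fold was 1 at 1 day against control under the alternatives run, and 3 to 5 in both comparisons of 7 days. Osm at 7 days against control lay between 20.2-fold and 32.7-fold, and Igf1 between 0.100 and 0.160. Ratios that moved by more than 1.5 times were these. With at least 500 genes, Osm at 1 day against control was 0.159 and at 7 days against 1 day 174, Hgf at 7 days was 0.496 against control and 0.423 against 1 day, and Osm in monocyte-like cells was 21.8. With at most 20% mitochondrial UMIs, Areg at 7 days was 36.5 against control and 7.40 against 1 day, and Hbegf in neutrophil-like cells 7.72, which was 2.81 under the gate allowing no marker of another class. In neutrophil-like cells Osm was 3.64 with at least 3 markers and 2.94 without S100a8 and S100a9 in the gate, and Tgfb1 1.42 and 0.994. This last value is the reversed one. Hbegf at 7 days against 1 day also crossed 1, to 0.896 without mitochondrial UMIs, from a ratio whose interval held 1. The gate without S100a8 and S100a9 was chosen after seeing the data, as were the groups by marker share and the removal of shared barcodes. Under the gate that allowed no marker of another class, the leading class was kept for 2 of 8 genes, and 2 class ratios had an interval that excluded 1, against 28 as reported. There were 8 with at least 500 genes per barcode and 17 with at most 20% mitochondrial UMIs. These settings leave fewer cells. No share over all genes by the same interval rule is set beside these counts, so they describe the settings and not the 8 genes. Thinning took the share of 7-day neutrophil-like cells with Osm from 15.8% to 10.7%. Between libraries, 14 ratios in barcodes under 200 genes had an interval that excluded 1, and 0 did under 100 genes, where the libraries held 75, 20 and 130 barcodes. Here too no share over all genes is given. With a pseudocount of 50, 10 of 18 most similar genes were shared. No paired analysis was possible because each group is 1 library, and for the same reason leaving out a replicate could not be run. Depth limits Areg, Ereg, Pdgfb and Hgf most, with 26, 2, 131 and 163 UMIs in all cells.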
